A study of Mus musculus with 9 samples.

Results

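Pim1 is a serine/threonine kinase that cytokine receptors induce through STAT transcription factors, and it was examined here together with 9 other genes of the same signalling route: Cish, Socs1, Socs2, Socs3, Bcl2l1, Myc, Stat5a, Stat5b and Csf2rb. All 10 genes were represented, among 8388 genes with a symbol of their own on the arrays. They were found by gene symbol and held 14 probe sets, of which 13 were on both array designs used. RNA of dendritic cells at day 10 was hybridised to 9 arrays: 3 of cells labelled IAb-/-, for the MHC class II beta chain gene H2-Ab1, 3 of cells labelled CIITA-/-, for the activator of the class II genes, and 3 of wild-type B6 cells. All 3 groups are mouse cells of the same day, and the labels name no further treatment. Each group has 1 array in each of experiments 1, 2 and 3. Experiment 1 was run on another array design, so tests were made on experiments 2 and 3 (6 arrays, n = 2 for each group) and experiment 1 stands beside them. The title of 1 CIITA-/- array has no experiment number, and this array was taken as experiment 2 because the others of its group hold 1 and 3. Whether arrays stem from different mice or cultures is not stated, and the p-values therefore cover array-to-array spread that may be technical.

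The targeted genes were read first as a check of the labels. H2-Ab1 gave 30749, 16070 and 9621 on the arrays labelled IAb-/-, 675, 615 and 112 on CIITA-/- arrays, and 44048, 17261 and 21348 on B6 arrays, in experiments 1, 2 and 3. It was near background in CIITA-/-, and on each array labelled IAb-/- it read below the B6 array of its experiment but well above background (log2 -0.63 against B6, SE 0.81, limma adjusted p = 1). Which part of the gene was deleted, and whether the probes lie in it, was not analysed here, so H2-Ab1 does not check the IAb-/- label, and IAb-/- below stands for the arrays so labelled. The Ciita probe set was within noise on all 9 arrays, with 1224, 398 and 644 in IAb-/-, 1822, 1601 and 1639 in CIITA-/-, and 1045, 623 and 933 in B6, and checks no label either.

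Receptors for GM-CSF, IL-3 and IL-5 share a common beta chain, encoded by Csf2rb, which has no enzyme activity of its own and works through the kinase JAK2. JAK2 phosphorylates STAT5, which enters the nucleus and switches on target genes, among them Cish and the SOCS genes, whose products bind back to the receptor or the kinase and damp the signal. Dendritic cells are commonly grown from bone marrow in GM-CSF, a ligand of this route. The labels do not say which growth factor was used.

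Pim1 was chosen by its intensities in IAb-/- against B6 on these same arrays, so its levels there are a description and carry no test. The other 9 genes were added for their place in the pathway, and the question was whether they move with Pim1. Levels are background-subtracted intensities in arbitrary units, and log2 differences (IAb-/- minus B6, CIITA-/- minus B6, IAb-/- minus CIITA-/-) were taken after values under 123.5 were set to that floor. A probe set was said to lie above noise where at least 1 of the 6 arrays exceeded 1701, a limit that 95% of the negative values do not pass in size (2203 for experiment 1). By that limit 12 of the 14 probe sets were above noise. Levels of different probe sets are not comparable with each other.

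STAT proteins bind the palindrome TTCNNNGAA, which reads the same on both strands. Promoter windows of RefSeq (GRCm38.p6, 250 bases before to 50 after the annotated start) were found for 7 of the 10 genes, in 12 entries. The motif occurred in 2 of these, those of Cish and Socs3, and in 8.3% of all 32851 promoter windows. The 3 windows below are shown so that both feedback genes that hold the letters can be set beside the upstream start of Pim1, where they do not occur. Capitals mark the motif. Cish lies on the plus strand at chr9:107296409-107296708 and holds TTCCTGGAA at positions 1 to 9 and TTCTTGGAA at positions 12 to 20, counted from the annotated start. Socs3 lies on the minus strand at chr11:117969317-117969616 and holds TTCTTAGAA at positions -154 to -146. The Pim1 window is on the plus strand at chr17:29490535-29490834. A match of letters is a description and does not show that a factor binds there.
Cish: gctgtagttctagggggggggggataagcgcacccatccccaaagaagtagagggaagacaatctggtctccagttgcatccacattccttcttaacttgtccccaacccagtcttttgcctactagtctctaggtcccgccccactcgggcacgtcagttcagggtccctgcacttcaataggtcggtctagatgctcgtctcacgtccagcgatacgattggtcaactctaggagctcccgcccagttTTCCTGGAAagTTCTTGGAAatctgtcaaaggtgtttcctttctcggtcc
Socs3: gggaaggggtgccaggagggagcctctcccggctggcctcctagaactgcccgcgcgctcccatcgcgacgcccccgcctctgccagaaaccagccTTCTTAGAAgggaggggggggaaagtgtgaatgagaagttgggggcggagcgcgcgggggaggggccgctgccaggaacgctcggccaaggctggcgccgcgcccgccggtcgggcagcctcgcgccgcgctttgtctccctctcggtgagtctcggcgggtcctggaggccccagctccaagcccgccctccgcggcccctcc
Pim1: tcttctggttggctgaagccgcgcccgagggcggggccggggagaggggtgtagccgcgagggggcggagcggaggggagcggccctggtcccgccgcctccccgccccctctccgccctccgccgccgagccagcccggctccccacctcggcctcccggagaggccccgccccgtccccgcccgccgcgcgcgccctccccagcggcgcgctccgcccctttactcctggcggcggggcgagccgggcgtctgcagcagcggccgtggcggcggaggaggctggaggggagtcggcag

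Both Pim1 probe sets read higher on every IAb-/- array than on any CIITA-/- or B6 array of the same design. The difference was 3.2-fold on one probe set and 1.45-fold on the other. The first Pim1 probe set gave 7444, 6335 and 5710 on the IAb-/- arrays of experiments 1, 2 and 3, 2508, 1689 and 2153 on the CIITA-/- arrays, and 3516, 1775 and 1986 on the B6 arrays. The IAb-/- values thus did not overlap with either other group, while CIITA-/- and B6 overlapped. Over experiments 2 and 3 the means were 6023 ± 442 in IAb-/-, 1921 ± 328 in CIITA-/- and 1880 ± 149 in B6 (SD, n = 2 each). The ratio of IAb-/- to B6 was 2.12, 3.57 and 2.88 in experiments 1, 2 and 3, with log2 differences of 1.08, 1.84 and 1.52. B6 and CIITA-/- levels of this probe set in experiments 2 and 3 lay close to the noise limit, and the CIITA-/- array of experiment 2 fell below it. In bulk RNA such as this, more RNA per cell and more cells that carry it cannot be told apart.

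The second Pim1 probe set is well above noise on all arrays and gave a smaller ratio. It read 27981, 24271 and 22218 on IAb-/- arrays, 21636, 16950 and 18548 on CIITA-/- arrays, and 19833, 16639 and 15476 on B6 arrays. Within each experiment the IAb-/- array was again the highest. The ratio to B6 was 1.41, 1.46 and 1.44 in experiments 1, 2 and 3, and the means of experiments 2 and 3 were 23244 ± 1452 in IAb-/-, 17749 ± 1130 in CIITA-/- and 16058 ± 822 in B6. Both probe sets therefore had the same direction and differed in size. Which part of the transcript each one reads was not analysed here.

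**Figure D1:**
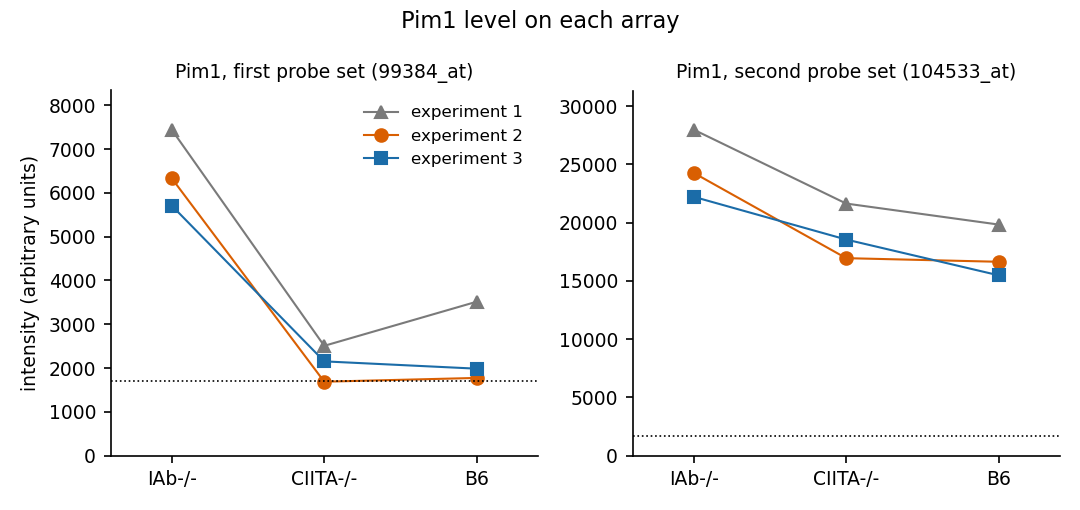
Intensity (arbitrary units, linear axis from 0) of the first (left) and second (right) Pim1 probe set on each array, with groups on the horizontal axis and lines joining arrays of one experiment; the dotted line is the noise limit of experiments 2 and 3 (1701). The IAb-/- arrays are highest in each experiment on both probe sets, at 5710 to 7444 on the left and 22218 to 27981 on the right.

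The comparison of CIITA-/- with B6 was not itself used to pick Pim1. It does share the B6 arrays that were used, and the IAb-/- arrays enter its estimate of the spread. Its p-values and intervals are therefore not free of that choice. The first probe set had a log2 difference of 0.02 there (SE 0.19, limma adjusted p = 0.996, 95% interval -0.47 to 0.51), and the second one of 0.14 (SE 0.15, adjusted p = 0.93, interval -0.24 to 0.53). In experiment 1 the same differences were -0.49 and 0.13. So neither Pim1 probe set passed in CIITA-/-, and log2 differences larger in size than 0.53 lie outside both intervals. IAb-/- against CIITA-/- shares the IAb-/- arrays that singled out Pim1 and is given without a test: the log2 differences were 1.57, 1.91 and 1.41 in experiments 1, 2 and 3 for the first probe set and 0.37, 0.52 and 0.26 for the second.

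None of the other 9 genes passed in IAb-/- against B6 (limma, adjusted p of 1 for each probe set tested), where 0.0107% of all 9312 probe sets passed, 1 lower and 0 higher, and 401 had an unadjusted p under 0.05. As 0 probe sets passed as higher, those of Pim1 included, not passing does not set these 9 genes apart from Pim1. Of the 10 probe sets of these genes above noise, 0 reached an unadjusted p under 0.05. Their log2 differences ran from -0.07 to 0.63, with a median of 0.09 against 0.01 over all probe sets tested. Both IAb-/- arrays of experiments 2 and 3 were above both B6 arrays for 2 of the 10, Csf2rb and a Stat5a probe set, and below both for 0. Over all 4950 tested probe sets above noise 16.7% lay above and 15.7% below, so the share among these genes is near that background. Of the 9 that are on both designs, 2 (Cish and Csf2rb) were higher in IAb-/- in all 3 experiments, against 13.8% of 4158 probe sets.

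**Figure D2:**
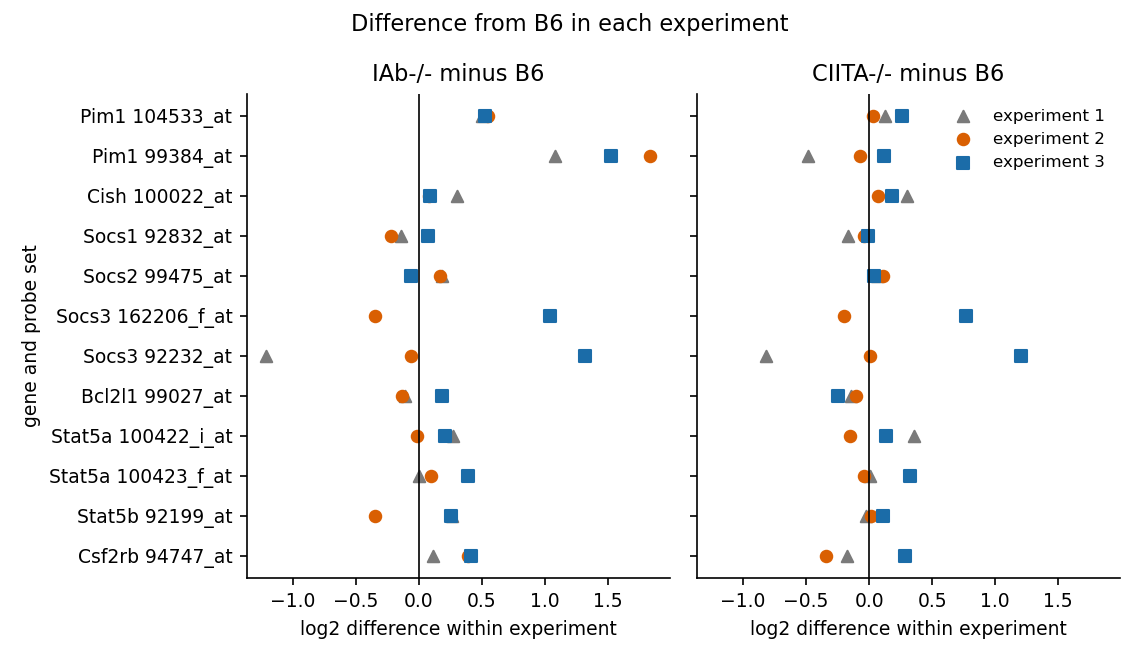
Log2 difference from B6 within each experiment (horizontal axis) for the 12 probe sets above noise (vertical axis), for IAb-/- on the left and CIITA-/- on the right; each point is 1 array minus the B6 array of its experiment. The Pim1 probe sets lie right of 0 in all 3 experiments on the left panel, at 0.50 to 0.54 and 1.08 to 1.84, and Socs3 takes both signs in both panels.

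The feedback inhibitors came first, since Cish is among the most direct STAT5 targets known. Cish, whose product docks on phosphorylated receptors, gave 25848, 26512 and 24099 on IAb-/- arrays, 25906, 26376 and 25827 on CIITA-/- arrays, and 20990, 25074 and 22718 on B6 arrays. The highest B6 array exceeded the lowest IAb-/- array. The log2 difference between IAb-/- and B6 was 0.08 (SE 0.14, limma adjusted p = 1, 95% interval -0.30 to 0.46). For CIITA-/- against B6 it was 0.13 (SE 0.14, adjusted p = 0.93), and this difference was above 0 in all 3 experiments.

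Socs1, an inhibitor that binds JAK kinases and is also induced by interferons, gave 12947, 11171 and 10254 on IAb-/- arrays, 12732, 12620 and 9701 on CIITA-/- arrays, and 14319, 13013 and 9763 on B6 arrays. The groups overlapped, and arrays of experiment 3 were the lowest in each group. The log2 difference was -0.07 for IAb-/- against B6 (SE 0.23, limma adjusted p = 1, interval -0.67 to 0.52) and -0.03 for CIITA-/- against B6 (adjusted p = 0.996, interval -0.62 to 0.57).

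Socs2, known in mice as a brake on growth hormone signalling and induced through STAT5, read 52065, 59478 and 49960 on IAb-/- arrays, 48126, 56984 and 53634 on CIITA-/- arrays, and 45975, 52937 and 52151 on B6 arrays. These values overlapped as well, and the log2 difference between IAb-/- and B6 was 0.05 (SE 0.16, limma adjusted p = 1, interval -0.35 to 0.46). In CIITA-/- against B6 it was 0.07 (adjusted p = 0.97).

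Socs3, which inhibits receptors of the gp130 family and answers mainly to STAT3, had the largest standard error of the 10 genes, and differed between experiments within every group. Its first probe set gave 8660, 10004 and 6626 on IAb-/- arrays, 11398, 10487 and 6138 on CIITA-/- arrays, and 20068, 10443 and 2662 on B6 arrays. In B6 the array of experiment 2 read 3.92 times that of experiment 3, against 1.51 times in IAb-/- and 1.71 times in CIITA-/-. The second probe set is on the design of experiments 2 and 3 alone and gave 11088 and 9331 in IAb-/-, 12304 and 7741 in CIITA-/-, and 14143 and 4539 in B6. On both probe sets the B6 array of experiment 3 was the lowest of the 6.

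As a result the Socs3 difference between IAb-/- and B6 changed sign between experiments, without a test: the first probe set had log2 differences of -1.21, -0.06 and 1.32 in experiments 1, 2 and 3. For CIITA-/- against B6 they were -0.82, 0.01 and 1.20, and both comparisons share the same B6 arrays. The fitted difference of 0.63 (SE 0.73, limma adjusted p = 1) has a 95% interval of -1.29 to 2.54, which holds both 0 and the larger Pim1 value. Leaving out the B6 array of experiment 2 gave 1.61, and leaving out that of experiment 3 gave -0.36.

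**Figure D3:**
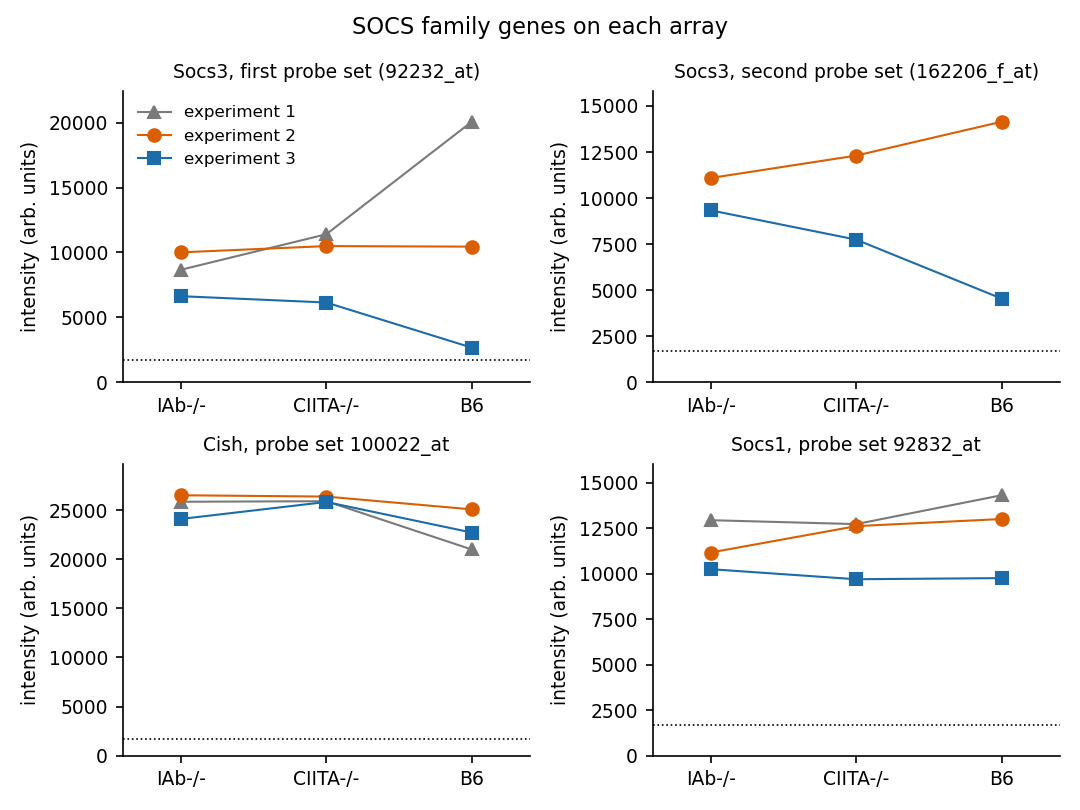
Intensity (arbitrary units, linear axis from 0) of 2 Socs3 probe sets, Cish and Socs1 on each array, with groups on the horizontal axis and lines joining arrays of one experiment; the dotted line is the noise limit of experiments 2 and 3. The B6 arrays of Socs3 on the upper left spread from 2662 to 20068, while Cish stays between 20990 and 26512 on all arrays.

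None of the probe sets of the transcription factors of the route passed in IAb-/- against B6. Stat5a and Stat5b encode near-identical proteins, so their probe sets may share signal. The first Stat5a probe set gave 14150, 20497 and 25841 on IAb-/- arrays, 15087, 18686 and 24553 on CIITA-/- arrays, and 11764, 20761 and 22346 on B6 arrays. Its groups overlapped, with a log2 difference between IAb-/- and B6 of 0.10 (SE 0.22, limma adjusted p = 1, interval -0.47 to 0.66). The second Stat5a probe set read 11424, 12590 and 16316 on IAb-/- arrays, 11488, 11435 and 15618 on CIITA-/- arrays, and 11455, 11785 and 12492 on B6 arrays. In experiments 2 and 3 the IAb-/- arrays of this probe set lay above both B6 arrays. The log2 difference was 0.24 (SE 0.23, limma adjusted p = 1, interval -0.37 to 0.85), and in experiment 1 the arrays differed by 0.00.

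Stat5b gave 3880, 3120 and 4515 on IAb-/- arrays, 3174, 4014 and 4084 on CIITA-/- arrays, and 3239, 3982 and 3789 on B6 arrays. In experiments 2 and 3 the lowest and the highest of the 6 readings were both IAb-/- arrays, so that group enclosed the others. The log2 difference from B6 was -0.05 in IAb-/- (SE 0.22, limma adjusted p = 1, interval -0.62 to 0.52) and 0.06 in CIITA-/- (adjusted p = 0.98).

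Survival and growth targets were read next. Bcl2l1 encodes BCL-XL, which blocks mitochondrial cell death, and its first probe set gave 7281, 7363 and 8927 on IAb-/- arrays, 7116, 7497 and 6620 on CIITA-/- arrays, and 7870, 8064 and 7850 on B6 arrays. The IAb-/- arrays overlapped with B6 (log2 0.03, SE 0.17, limma adjusted p = 1, interval -0.41 to 0.47). All CIITA-/- arrays lay below the B6 array of their experiment, with a log2 difference of -0.18 (SE 0.17, adjusted p = 0.93). The other Bcl2l1 probe set was under the noise limit on every array, at -481 to 56, and did not pass the filter on low values. That left 13 of the 14 probe sets tested, with every gene represented.

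Myc, the transcription factor that drives growth and ribosome production, was also within noise on all 9 arrays. Its probe set gave 388, 406 and 433 in IAb-/-, 769, 478 and 376 in CIITA-/-, and 172, 428 and 287 in B6. The log2 differences of 0.26 in IAb-/- and 0.27 in CIITA-/- against B6 (SE 0.26 for both, limma adjusted p = 1 and 0.93) come from values at this limit and give no size. No statement on Myc induction can be made from it.

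Csf2rb, the receptor chain itself, came nearest to the direction of Pim1. Its probe set gave 37613, 24509 and 23258 on IAb-/- arrays, 30795, 14764 and 21292 on CIITA-/- arrays, and 34774, 18756 and 17497 on B6 arrays. The IAb-/- array was the highest of its experiment each time. The share of all probe sets with this order was not counted. Of 4158 probe sets above noise, 13.8% were above B6 and 13.1% above CIITA-/- in all 3 experiments, each comparison counted alone. The means of experiments 2 and 3 were 23883 ± 885 in IAb-/-, 18028 ± 4615 in CIITA-/- and 18126 ± 891 in B6, a 1.32-fold difference between IAb-/- and B6. On the log2 scale this was 0.40 (SE 0.22, limma adjusted p = 1, interval -0.18 to 0.97), so it did not pass. With experiment as a block over all 9 arrays it was 0.30 (SE 0.17, adjusted p = 0.92).

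Mice carry a near-identical second beta chain gene, Csf2rb2, whose product serves the IL-3 receptor, and signal from it cannot be separated with certainty from that of Csf2rb. One probe set is assigned to both genes and gave 32120, 19743 and 18472 on IAb-/- arrays, 22998, 14245 and 17041 on CIITA-/- arrays, and 30674, 15414 and 14788 on B6 arrays. The probe set of Csf2rb2 alone gave 42830, 27732 and 31959 in IAb-/-, 31072, 25045 and 27664 in CIITA-/-, and 38521, 24477 and 25560 in B6. On both, the IAb-/- array was the highest of its experiment, with log2 differences from B6 of 0.34 (SE 0.16) and 0.25 (SE 0.15), each with a limma adjusted p of 1. As for Csf2rb, how common that order is over all probe sets was not counted. A further Csf2rb2 probe set lay within noise.

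**Figure D4:**
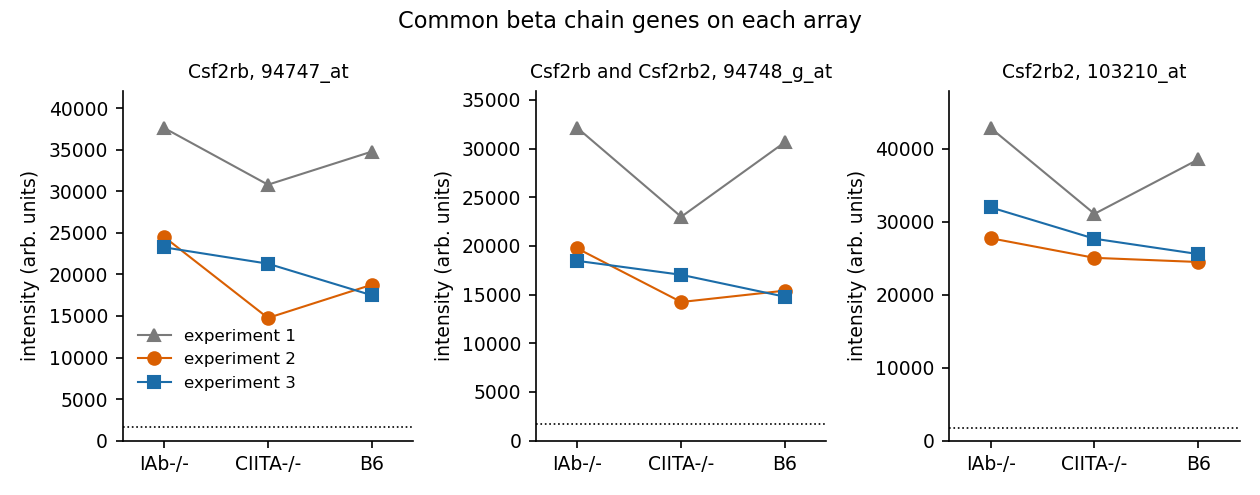
Intensity (arbitrary units, linear axis from 0) of the probe sets for Csf2rb, for Csf2rb and Csf2rb2 together, and for Csf2rb2, with groups on the horizontal axis and lines joining arrays of one experiment; the dotted line is the noise limit of experiments 2 and 3. The IAb-/- array is the highest of its experiment in all 3 panels, while the CIITA-/- arrays of Csf2rb spread from 14764 to 30795.

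In CIITA-/- against B6 none of these genes passed either (limma), where 0.0966% of 9312 probe sets did, 2 higher (0.0215%) and 7 lower (0.0752%). Among the 10 probe sets above noise other than Pim1, log2 differences ran from -0.18 to 0.61 with a median of 0.07, against 0.01 over all, and 0 had an unadjusted p under 0.05, against 546 of all. Both CIITA-/- arrays lay above both B6 arrays for 3 of them (Cish, Socs2 and Stat5b) and below for 1 (Bcl2l1), beside 22.3% and 17.9% of all probe sets above noise. Of the 9 on both designs, 2 (Cish and Socs2) were higher in CIITA-/- in all 3 experiments and 2 (Socs1 and Bcl2l1) lower, beside 16.4% and 13.4% of 4158 probe sets. A difference of at least 1 log2 unit upward in all 3 experiments was seen in 0 of them, beside 0.0481% of those 4158. In IAb-/- against CIITA-/-, 0 of the 10 passed (limma, lowest and highest log2 -0.11 and 0.43, 0 at an unadjusted p under 0.05), where 0.0215% of all did, 1 higher and 1 lower. Csf2rb was the 1 probe set with both IAb-/- arrays above both CIITA-/- arrays, beside 12% of all.

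The Pim1 relatives Pim2 and Pim3 encode kinases with overlapping roles, and both read low here. Pim3 gave 4166, 2237 and 1389 in IAb-/-, 2975, 1656 and 1430 in CIITA-/-, and 3778, 1827 and 1499 in B6, with overlapping groups and a log2 difference between IAb-/- and B6 of 0.09 (SE 0.28, limma adjusted p = 1, interval -0.65 to 0.84). Pim3 lay under the noise limit on all arrays of experiment 3 and on the CIITA-/- array of experiment 2, and its interval holds the 0.53 of the second Pim1 probe set. Pim2 was within noise: its first probe set gave 1074, 214 and 421 in IAb-/-, 526, 506 and 601 in CIITA-/-, and 607, 450 and 656 in B6, and its other probe set lay below 0 on every array it was on.

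Further genes of the route were counted by list, with the brightest probe set standing for each gene. Over all 6709 genes tested in this way, 3465 were higher and 3224 lower by value in IAb-/- against B6, 0 were called (limma) and 276 had an unadjusted p under 0.05. Among STAT target genes other than the 10, 29 of 37 were tested. Of these 19 were higher by value and 10 lower, with 0 called and a median log2 difference of 0.13 against 0.01 over all genes. In CIITA-/- against B6 this list also had 19 higher and 10 lower, with a median of 0.13. In IAb-/- against CIITA-/- it had 11 higher and 18 lower, with a median of -0.03. Over its genes above noise, the medians in experiment 1 were 0.26, 0.16 and 0.12 in the same order of comparisons. The last of these has the opposite sign. Irf1, a transcription factor, was at 3254 ± 439 in IAb-/- against 5391 ± 130 in B6 (log2 -0.73, SE 0.24, adjusted p = 1, and -0.20 in experiment 1). Cebpb, a myeloid transcription factor, was at 11927 ± 31 against 8322 ± 406 (log2 0.52, SE 0.16, adjusted p = 1, and 0.05 in experiment 1). Fcgr1, a high-affinity IgG receptor, was at 5814 ± 853 against 4155 ± 31 (log2 0.48, adjusted p = 1), and also read higher in CIITA-/-, at 6307 ± 1446. It also stands in the macrophage and monocyte marker list.

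Of the receptor list, which also holds the cytokine gene Tslp, 19 of 30 genes were tested: 10 were higher and 9 lower by value in IAb-/-, with 0 called and a median of 0.01. Csf3r, the G-CSF receptor, was at 2342 ± 73 in IAb-/- against 3816 ± 89 in B6 (log2 -0.70, SE 0.14, limma adjusted p = 0.66), but had a log2 difference of 1.62, the opposite sign, in experiment 1. Il3ra, the alpha chain of the IL-3 receptor, had a log2 difference of 0.34 and -0.46 in experiment 1, and Il6ra one of -0.47 and 1.02. Ligand genes split 7 higher and 6 lower of 13 tested, with 0 called. Flt3l, a growth factor for dendritic cells, was at 782 ± 20 in IAb-/-, below the noise limit, against 1722 ± 732 in B6 (log2 -1.07, SE 0.33, adjusted p = 1; -1.26 in experiment 1). Csf3 and Il6 had log2 differences of -0.28 and 0.27. In CIITA-/- against B6 the ligand list held 1 called gene, Il13 (log2 -2.28, adjusted p = 0.04), which was within noise on all 6 arrays. With the replicate block of experiments 2 and 3 no probe set passed in this comparison, Il13 included.

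JAK kinases and the other STATs had 3 higher and 4 lower of 7 tested and a median of -0.04, with 0 called. Jak2, the kinase that the common beta chain uses, read 17434, 16474 and 17765 in IAb-/-, 19230, 17513 and 17777 in CIITA-/-, and 19335, 18785 and 17809 in B6 (log2 -0.10 for IAb-/- against B6, SE 0.14, limma adjusted p = 1). Jak3 had a log2 difference of 0.26 and Stat4 one of -0.46. Negative regulators gave 5 higher and 8 lower of 13 tested, a median of -0.01 and 0 called, with Cbl at 0.43, Ptpn2 at -0.26 and Ptpn6 at -0.23. MYC targets gave 14 higher and 6 lower of 20 tested, a median of 0.12 and 0 called, with Tfrc at -0.33, Cdk4 at 0.24 and Nop56 at 0.21. NF-kB and stress genes gave 10 higher and 13 lower of 23 tested, a median of -0.01 and 0 called. There Egr1 had a log2 difference of 0.68, Jun of 0.48 and Klf4 of 0.45, each of the opposite sign in experiment 1 (-0.76, -0.31 and -0.70).

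**Figure D5:**
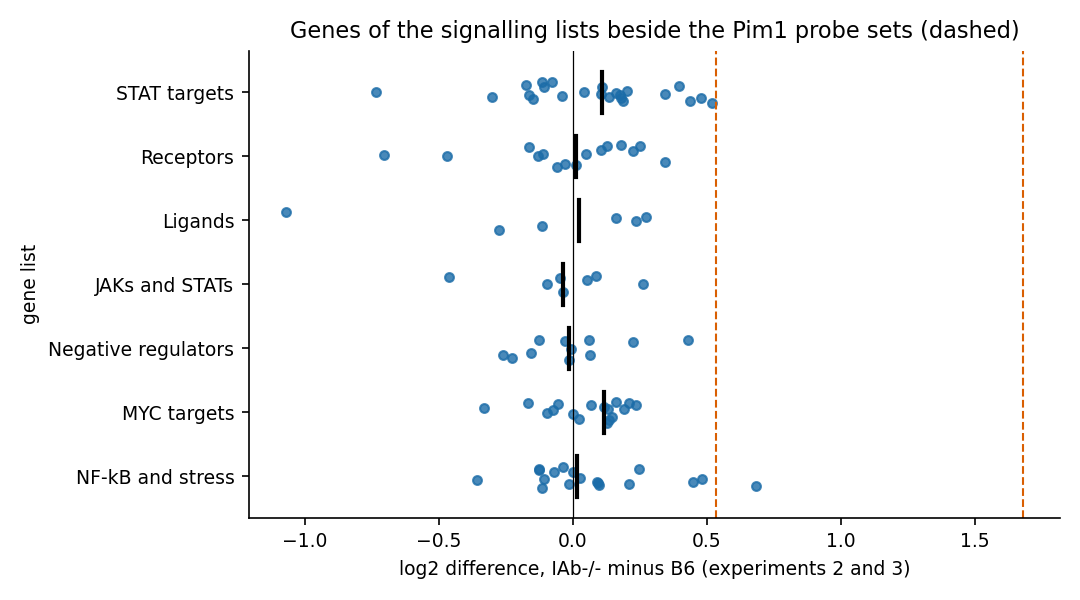
Log2 difference between IAb-/- and B6 in experiments 2 and 3 (horizontal axis) for genes of 7 lists (vertical axis), tested and above noise, each point a gene and each black bar the median of the points; dashed lines mark the Pim1 probe sets at 0.53 and 1.68. No point reaches the larger Pim1 value, and list medians lie between -0.04 and 0.12.

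The dendritic cell label was checked against markers: 14 of 14 markers were above noise, among them Itgax and Cd74, beside 3898 of all 8252 genes. Their sum was 815641 and 587672 in IAb-/- in experiments 2 and 3, 694525 and 671039 in CIITA-/-, and 662206 and 631825 in B6. The IAb-/- arrays thus held both the highest and the lowest sum. In IAb-/- against B6, 0 markers of any list passed (limma). The summed level of 11 macrophage and monocyte markers was 43097 to 54421 in IAb-/-, 42808 to 49106 in CIITA-/- and 33818 to 38865 in B6, with 5 of the 11 above noise and 9 of 11 tested higher by value in IAb-/- than in B6. Macrophage sums in CIITA-/- were thus also above those of B6. All marker sums given here are of experiments 2 and 3. For the macrophage markers above noise, the median log2 differences from B6 there were 0.25 in IAb-/- and 0.24 in CIITA-/-. In experiment 1 they were -0.019 and -0.001, so that experiment did not show the rise. The sum of 11 neutrophil markers was 10873 to 11999 in IAb-/-, 8588 to 10042 in CIITA-/- and 7643 to 8758 in B6, with 3 of the 11 above noise and Ngp and Mmp8 at or below 0 on all 6 arrays. Of 7 neutrophil markers tested, 2 were higher by value in IAb-/- than in B6 and 5 lower, and the higher sum came from Lcn2, a granule gene that other cells can induce. Lcn2 was at 5650 ± 1308 in IAb-/- against 1837 ± 189 in B6 (log2 1.61, SE 0.22, limma adjusted p = 0.41).

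Sums of 8 fibroblast markers were 11101 to 14725 in IAb-/-, 12260 to 16435 in CIITA-/- and 9095 to 10094 in B6, with 2 above noise (Col1a2 and Fn1). Sums of 12 mast cell and basophil markers were 9634 to 11391 in IAb-/-, 10006 to 10073 in CIITA-/- and 8238 to 9105 in B6, with 1 above noise (Mcpt1). In experiments 2 and 3 both lists read above B6 in IAb-/- and in CIITA-/-. B cell markers, with 4 of 7 above noise (Cd79b, Ms4a1, Pax5 and Ighm), summed to 10174 to 11788 in IAb-/-, 10343 to 12441 in CIITA-/- and 10241 to 11123 in B6. Of 5 erythroid markers 1 was above noise (Klf1), with sums of 9016 to 9485 in IAb-/- and 6771 to 9624 in B6, so that these lists overlapped between the groups. Of the T cell and NK cell markers 0 of 9 and 0 of 5 were above noise. The hybridisation control Cre read 140310 on the IAb-/- array of experiment 2 and 78903 on that of experiment 3. On the other 4 arrays of these experiments it read 93949 to 108986. The part of other cell types or of hybridisation in the Pim1 values was not tested.

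Genes whose pattern was most like Pim1 were ranked by Pearson correlation with the second Pim1 probe set over the 9 arrays, on log2 values centred within each experiment, among 3191 probe sets above noise in every experiment. The first Pim1 probe set had r = 0.93, and the 5 highest other genes were Kansl2 (0.95), Laptm4a (0.95), Fbxw5 (0.93), Glo1 (0.93) and Mdm2 (0.93). In all, 13 probe sets, Pim1 included, exceeded 0.9. Correlation takes no account of size. In experiments 1, 2 and 3 Fbxw5 differed between IAb-/- and B6 by 0.09, 0.16 and 0.06 log2 units. Laptm4a differed by 0.25, 0.34 and 0.17, and Mdm2 by 0.40, 0.18 and 0.25. Csf2rb had r = 0.81 and ranked 64th, Csf2rb2 had 0.73, and the second and first Stat5a probe sets had 0.67 and 0.55. The others were Socs2 (0.56), Cish (0.52), Stat5b (0.06), Socs3 (0.04), Bcl2l1 (-0.01) and Socs1 (-0.54). These values are descriptions over arrays that share experiments and group labels. Over the 6 arrays of experiments 2 and 3 alone, 0 of the 5 genes named first stayed among the 5 highest. The first Pim1 probe set itself ranked 25th there.

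Of the 5, Glo1, which encodes the glyoxalase I enzyme that clears methylglyoxal, differed most in size. Its first probe set gave 6539, 5967 and 6638 on IAb-/- arrays, 3184, 2930 and 3215 on CIITA-/- arrays, and 3794, 3123 and 2815 on B6 arrays. As with Pim1, every IAb-/- array was above all others, and CIITA-/- and B6 overlapped. Glo1 was named for its likeness to Pim1, so this separation is in part built in by the ranking and is only a description. Kansl2, a subunit of a histone acetylation complex, differed by less, with 5192, 4505 and 4659 in IAb-/-, 4317, 3892 and 4402 in CIITA-/-, and 4246, 3897 and 3652 in B6. A further count gave 3 of 4158 probe sets at least 1 log2 unit higher in IAb-/- than in B6 in all 3 experiments (0.0722%): the first Pim1 probe set, which was chosen for that difference, F5 (coagulation factor V) and Mknk1, a kinase of the translation factor eIF4E. The last pair was named after their values were seen, and both lay below the noise limit on several arrays. Neither difference was confined to IAb-/-. Mknk1 gave 2904, 2169 and 750 on CIITA-/- arrays against 1345.5, 497 and -1118 on B6 arrays in experiments 1, 2 and 3. F5 gave -27, 783 and 1345 against 136, 433 and 546.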

How the data were processed

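The deposited values are linear intensities of probe sets, in a table of 6 arrays (12488 probe sets) and one of 3 (12654). Per the labels, RNA preparation followed an earlier publication; the algorithm behind the values, not given in the sources used here, could not be checked. Arrays of the deposited tables share a 2% trimmed mean (2502.2 to 2502.6 and 2500.0) and 21% to 26.4% of values lie below 0, so the scale was kept. Values of the 6-array table were floored at their 30th percentile (123.5) and taken to log2, and the 9312 probe sets exceeding this floor on 2 or more arrays were fitted with limma 3.58.1 in R 4.3.3 (lmFit, eBayes, 3 groups, 3 residual degrees of freedom). Benjamini-Hochberg adjustment ran over all of them, and a call is an adjusted p under 0.05. The number of arrays limits the precision. Experiment 1 was floored at 93.2 and untested.

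Symbols come from the platform annotation; those with more than 1 symbol were not named, except one shared by Csf2rb and Csf2rb2. The genes and lists were chosen with earlier results of these data known. Named are the 10 genes, Pim2, Pim3, up to 3 genes per pathway list with the largest IAb-/- against B6 difference above noise and any called, and the 5 genes most like Pim1; markers were summarised. Experiment numbers in the titles pair the arrays: deviations from group means correlated at 0.05 to 0.21 between arrays of one experiment. The alternatives are listed at the end.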

Additional observations from a re-analysis of the deposited data

How the results depend on the processing

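Among the 10 genes, 0 probe sets passed under any alternative in IAb-/- or CIITA-/- against B6. In IAb-/- against CIITA-/- the count was 1 with the floor at the noise limit; it was a Pim1 probe set, chosen on these arrays, so nothing is read from it. Of 453 recomputed log2 differences of genes other than Pim1, 32 moved by over 1 SD and 46 took the other sign. Several alternatives leave a difference unchanged by arithmetic, such as the replicate block of experiments 2 and 3. Leaving out an array of the group not compared does so too. The 453 therefore hold values that could not move, and these counts are no measure of stability. The first Pim1 probe set in IAb-/- against B6 was 1.47 with a generalised log, 1.48 with the replicate block over all 9 arrays, and 1.60 to 1.76 when 1 array was left out. Against CIITA-/- it was 1.46 with the generalised log and 1.48 to 1.83 when 1 array was left out. In CIITA-/- against B6 it was -0.15 with the block over 9 arrays and -0.15 to 0.20 when 1 array was left out. For the second the ranges when 1 array was left out were 0.47 to 0.60, 0.32 to 0.45 and 0.08 to 0.21 in the same order. Of the 5 genes most like Pim1, 0 stayed among the 5 over the 6 arrays of experiments 2 and 3.

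Counts over all probe sets moved more, and the cause was not tested. In IAb-/- against B6 they were 5 without the filter, 3 with quantile normalization and 0 with the floor at the noise limit, the generalised log, the 2 groups alone and either replicate block. For CIITA-/- against B6 they were 14 without the filter, 5 with the floor at the 50th percentile or the generalised log, 3 with the floor at the noise limit, 1 with the 2 groups alone, 0 with the replicate block of experiments 2 and 3 and 4 with that over 9 arrays. For IAb-/- against CIITA-/- they were 7 without the filter, 4 with the floor at the noise limit, and 0 with the 2 groups alone and the block of experiments 2 and 3. Leaving out 1 array gave 0 in the first comparison and 0 to 1 in the others.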

Other observations

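Pim1, Glo1 and H2-Ab1, the gene named by the IAb-/- label, lie on the same chromosome, 17. In the RefSeq order 8 protein-coding genes lie between Pim1 and Glo1 and 95 between Glo1 and H2-Ab1. The other 9 genes of the Pim1 group lie on other chromosomes. This was looked up after the Glo1 values were seen, so the counts are descriptions with no test.

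Of 3749 probe sets above noise, on both designs and with a position, 25 differed between IAb-/- and B6 by at least 0.5 log2 units in the same direction in all 3 experiments, 11 higher and 14 lower (0.667%). In the stretch with Pim1 and H2-Ab1 at its ends there were 44 such probe sets with 3 of the 25, all higher: the first Pim1 probe set and both Glo1 probe sets. The rest of chromosome 17 held 178 probe sets and 3 of the 25, all lower: H2-M3, Pla2g7 and Guca1a. The values of these Pim1 and Glo1 probe sets prompted the count and Pim1 bounds the stretch, so the 3 are no support for a difference between the stretch and other places. The second Glo1 probe set gave 5859, 3497 and 4394 on IAb-/- arrays and 3102, 2384 and 2502 on B6 arrays in experiments 1, 2 and 3, with log2 differences of 0.92, 0.55 and 0.81. Most probe sets of the stretch, 41 of 44, did not reach that size. In CIITA-/- against B6 the same stretch held 4 probe sets past it, all lower and all of class II genes (H2-Ab1, H2-DMa, H2-DMb1 and H2-DMb2), and neither Pim1 nor Glo1. In IAb-/- against B6 H2-Ab1 itself did not reach that size in every experiment, with log2 differences of -0.52, -0.10 and -1.15 in experiments 1, 2 and 3. Labels give no strain history of the IAb-/- mice, and whether position has a part in the Pim1 values was not tested.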
